A study of Mus musculus with 12 samples.

Results

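Macroautophagy wraps cytoplasm, glycogen, lipid droplets or whole mitochondria in a double membrane, the phagophore, and delivers them to the lysosome for digestion. The ULK1 and ULK2 kinases start the process, a class III PI3-kinase marks the growing membrane, and a conjugation machinery attaches LC3 and GABARAP proteins (the ATG8 family) to it, to which cargo receptors bind. In the liver this route is known for supplying amino acids, glucose and fatty acids during a fast, and TFEB and TFE3 are the transcription factors best known for driving its genes and those of the lysosome.

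The data described here are the levels of 46 mouse genes of this pathway, chosen by symbol for their roles: 5 genes of the ULK initiation complex, 4 of the class III PI3-kinase complex, 5 that supply membrane to the phagophore, 6 of the conjugation machinery, 5 of the ATG8 family, 6 cargo and mitophagy receptors, 2 transcription factors, 5 proteins of the lysosomal membrane or its proton pump, and 8 lysosomal hydrolases. Each of the 46 symbols matched 1 row of the 48795 genes in the table. All 46 passed the filter on low counts, with at least 125 counts in every mouse, and were tested among 13812 genes. Liver RNA was sequenced from 12 female mice, 4 months old, on normal chow: 3 Nts+/+ mice fed ad libitum (mice 254, 257 and 323), 3 Nts+/+ mice fasted for 22 h (265, 282 and 322), 3 Nts-/- mice fed ad libitum (277, 303 and 319) and 3 Nts-/- mice fasted for 22 h (284, 290 and 295). The Nts-/- animals were bred to lack neurotensin, a gut peptide hormone, in the whole body, the cross was between Nts+/- parents, the controls were littermates, and the labels name no allele or agent that all groups share. The study asked what loss of neurotensin does to energy use in the liver, and the comparisons described here are fasted against fed in each genotype, Nts-/- against Nts+/+ in each feeding state, and the difference between the fasting differences.

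Library totals ran from 21999647 to 45273069 counts, so that 3 counts were worth 0.0663 to 0.136 CPM (counts scaled to a common library total). Nts itself had 0 counts in all 6 livers labelled Nts+/+. It had 46, 40 and 15 counts in the fed and 12, 4 and 18 counts in the fasted livers labelled Nts-/-. The only counts were thus in the livers labelled as lacking neurotensin. Those labels name a genotype and do not say whether transcripts of the gene remain. The Nts counts therefore do not bear out the labels, and the reason was not tested. Neither genotype comparison of Nts passed edgeR's test (adjusted p = 0.304 fed and 0.917 fasted), but the fed value was the smallest of all 13812 genes tested. Every statement on genotype below is therefore on the libraries as labelled. The 8 hepatocyte markers summed to between 109620 and 140428 CPM in every liver. No marker of any other liver cell type was at 0 in every mouse: the summed level was 367 to 767 CPM for 11 Kupffer cell and macrophage markers, 95.7 to 183 CPM for 7 stellate cell markers, 155 to 267 CPM for 7 sinusoidal endothelial markers, 13.7 to 49.7 CPM for 5 cholangiocyte markers, 13.0 to 26.5 CPM for 8 lymphocyte markers and 233 to 628 CPM for 5 erythroid markers. The stellate cell, sinusoidal endothelial and cholangiocyte sums were lower in every fasted liver than in every fed liver of the same genotype, and their part in the fasting differences below was not tested. Among the fasted livers labelled Nts-/-, mouse 290 had the highest sums of the macrophage (668 CPM) and lymphocyte (26.5 CPM) markers, and counts without it are given.

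The 46 genes covered a wide range of levels. Per kilobase of the longest annotated transcript and over all 12 mice, the lysosomal genes Ctsd (178.5 CPM per kb, the aspartic protease cathepsin D), Lamp2 (176 CPM per kb, a glycoprotein of the lysosomal membrane) and Ctsb (138 CPM per kb, the cysteine protease cathepsin B) were highest, and Tfeb was lowest at 2.18 CPM per kb. This order depended on the transcript length used. Over the transcript tagged canonical, Lamp2 (400.5 CPM per kb), its relative Lamp1 (224 CPM per kb) and Ctsd (188 CPM per kb) were highest and Atg2b was lowest at 2.38 CPM per kb. Mice of the same group lay close together: the median SD of log2 CPM within groups was 0.161 over the 46 genes, 0.187 over the 8222 genes tested that had at least the mean level of the lowest of them, and 0.237 over all genes tested. Ulk1, with an SD of 0.325, varied most between mice of a group, and Atg4b, the protease that trims LC3 before conjugation, varied least with 0.0612.

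Fasting raised 9 of the 46 genes and lowered 2 in the Nts+/+ livers, and raised 10 and lowered 2 in the livers labelled Nts-/-. Those that rose were a mixture of mitophagy and cargo receptors, LC3 genes, a lipid-transfer protein, a conjugation subunit, a proton pump subunit and hydrolases. The 2 that fell in both genotypes were Ulk2 and Ctsb. In edgeR's quasi-likelihood test with Benjamini-Hochberg adjustment over all genes, 11 of 46 genes (23.9%) passed an adjusted p of 0.05 in Nts+/+ livers, against 18.1% of all genes tested (8.91% higher and 9.19% lower). The share was 12 of 46 (26.1%) in livers labelled Nts-/-, against 16.8% of all genes tested (7.7% higher and 9.14% lower). The median log2 fold change of the 46 genes was 0.16 in Nts+/+ livers, with 30 genes above 0, and 0.18 in livers labelled Nts-/-, with 36 above 0. Over all genes tested the medians were -0.0032 and -0.011. At an unadjusted p under 0.05 stood 16 of 46 genes in Nts+/+ (32.5% of all genes tested) and 19 of 46 in Nts-/- (31.7%). With upper-quartile in place of TMM scaling the Nts+/+ split was 7 higher and 3 lower, the third being Gabarapl1 (adjusted p = 0.0376), against 17.9% of all genes. A single gene of the 46, Bnip3, changed by more than 2-fold, in both genotypes. Leaving out 1 mouse moved the Nts+/+ count of 11 to 5 without mouse 254 (9.46% of all genes in the same fit), to 7 without mouse 257 (11.4%) and to 7 without mouse 282 (8.7%). The Nts-/- count of 12 moved to 7 without mouse 290 (9.71%).

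**Figure D1:**
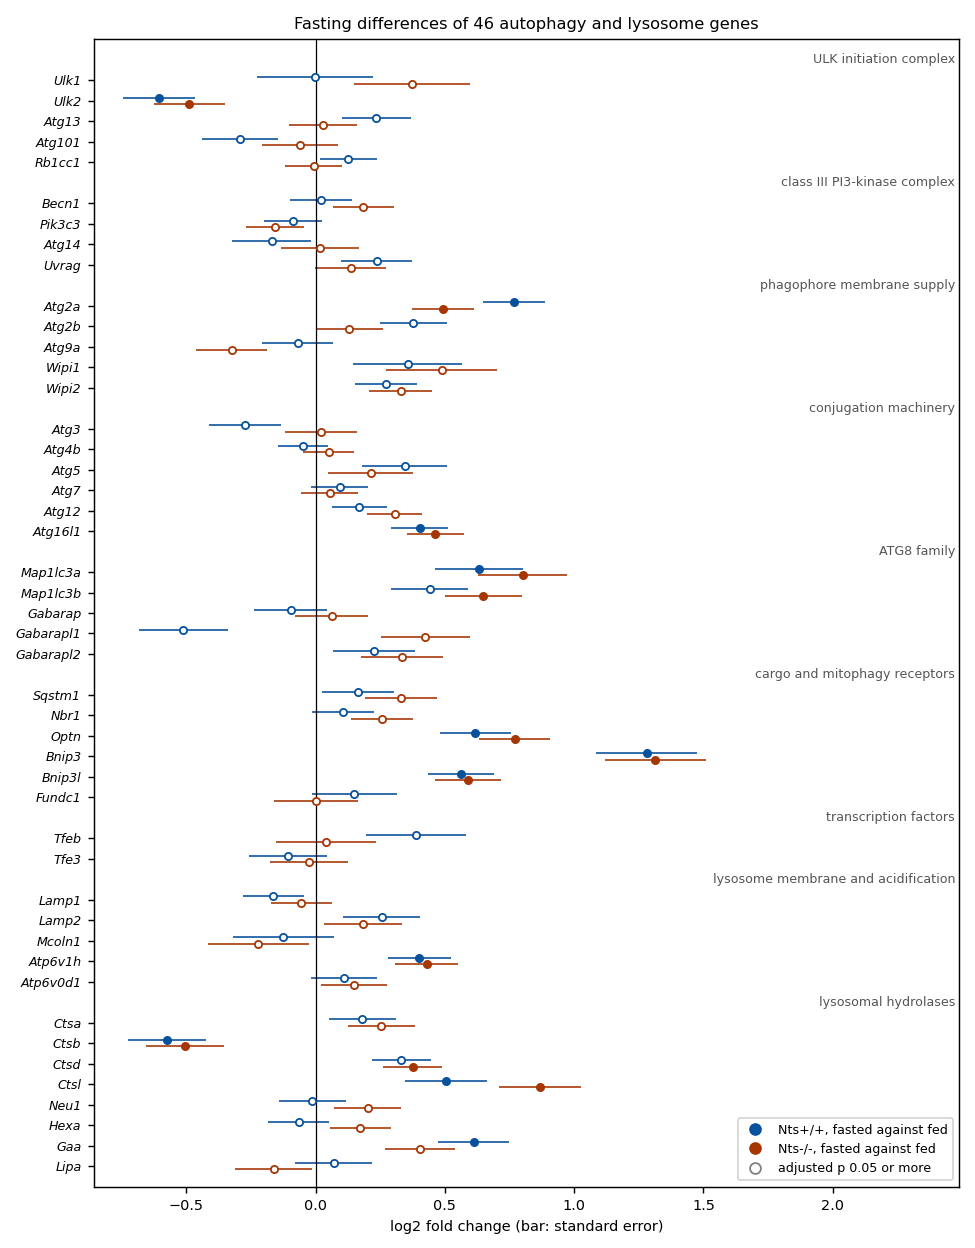
Log2 fold change, fasted against fed, of each of the 46 genes in Nts+/+ livers (blue) and livers labelled Nts-/- (brown), grouped by role; bars are standard errors (3 mice per group) and filled circles passed an adjusted p of 0.05. Bnip3 stands alone at 1.28 and 1.31, while Ulk2 and Ctsb are the filled circles below 0.

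The receptors that mark mitochondria for digestion held the largest difference. Bnip3 (chr7:138890836-138909519, GRCm38) codes for an outer mitochondrial membrane protein that binds LC3. It measured 146, 119 and 216 CPM in the 3 Nts+/+ fed livers and 327, 466 and 373 CPM in the 3 Nts+/+ fasted livers. Livers labelled Nts-/- held 169, 156 and 159 CPM fed and 405, 423 and 375 CPM fasted. Every fasted liver was above every fed liver in both genotypes, and the fed Nts+/+ livers were spread more widely than the other fed group. The log2 fold change with its standard error was 1.28 ± 0.20 in Nts+/+ (a 2.43-fold rise, adjusted p = 0.000856) and 1.31 ± 0.20 in Nts-/- (2.49-fold, adjusted p = 0.000610).

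Bnip3l (chr14:66985239-67008877), which codes for the related mitophagy receptor NIX, rose less. Its levels were 78.04, 78.3 and 102 CPM in Nts+/+ fed livers and 131, 129 and 123 CPM after the fast, and 81.1, 71.3 and 78.4 CPM in fed and 117, 125 and 106 CPM in fasted livers labelled Nts-/-. The fed and fasted ranges did not overlap in either genotype. The rise was 0.56 ± 0.13 on the log2 scale in Nts+/+ (adjusted p = 0.00889, but 0.0503 without mouse 254) and 0.59 ± 0.13 in Nts-/- (adjusted p = 0.00712).

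Optn (chr2:5020642-5064051), the gene of optineurin, which ties ubiquitin-tagged cargo to LC3, measured 60.5, 58.3 and 74.5 CPM in fed and 108, 95.8 and 93.4 CPM in fasted Nts+/+ livers. The corresponding levels in livers labelled Nts-/- were 59.4, 68.5 and 53.5 CPM fed and 91.3, 114 and 104 CPM fasted. Again no fed liver reached the lowest fasted liver. The log2 fold change was 0.62 ± 0.14 (adjusted p = 0.00813) in Nts+/+ and 0.77 ± 0.14 (adjusted p = 0.00221) in Nts-/-. The other receptors did not pass the test: Sqstm1, the gene of the ubiquitin-binding receptor p62, differed by 0.16 ± 0.14 in Nts+/+ and 0.33 ± 0.14 in Nts-/-, its fed and fasted ranges overlapping in both. Nbr1, a receptor built like p62, and Fundc1, a further mitophagy receptor, had adjusted p-values of at least 0.160 in both genotypes.

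**Figure D2:**
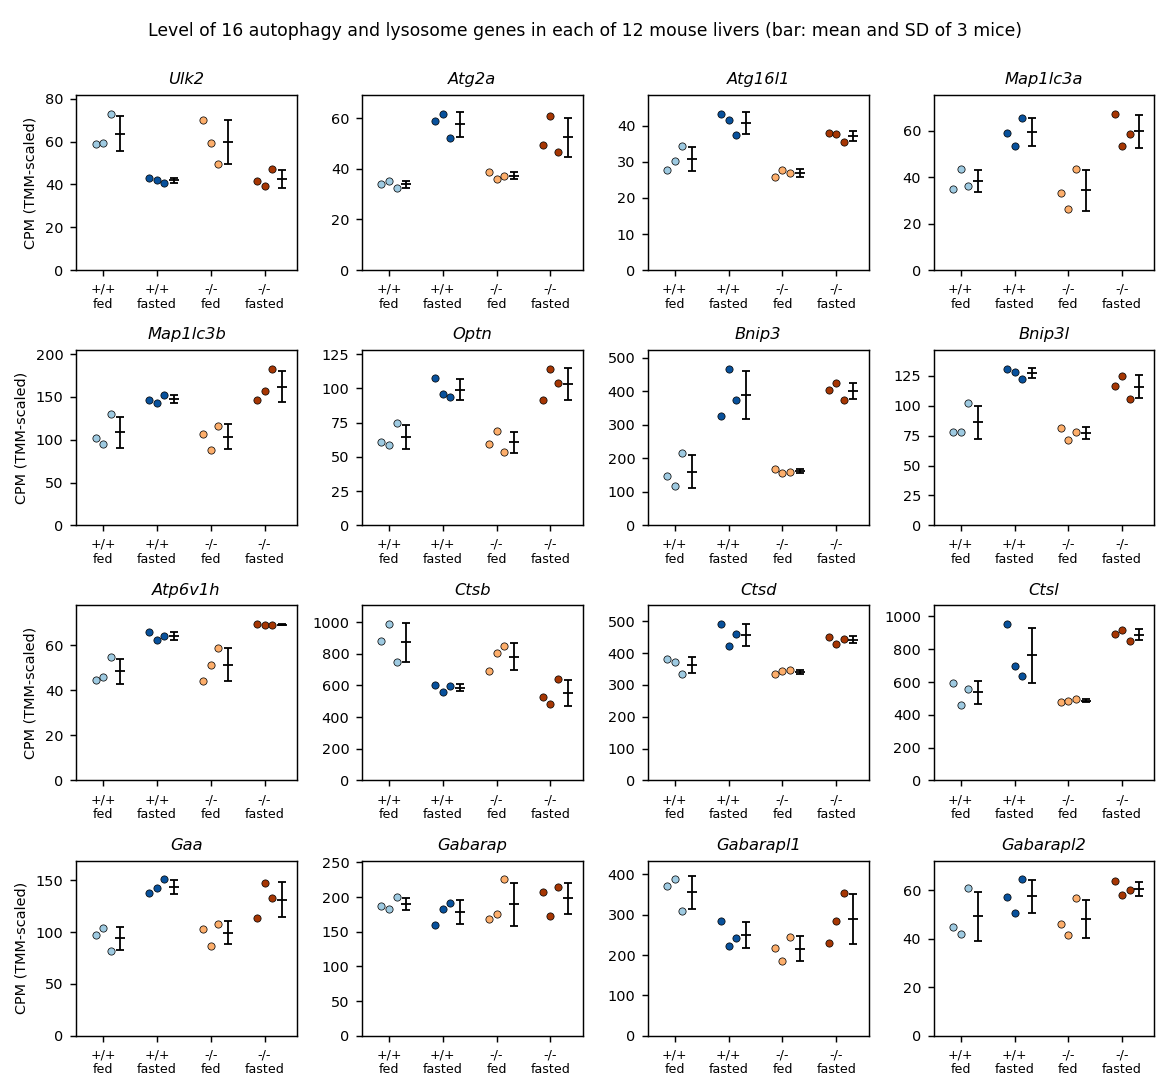
CPM in each of the 12 livers for the 13 genes that passed the test in either fasting comparison and the 3 GABARAP genes; each point is a mouse, bars are the mean and SD of 3 mice, and every axis starts at 0. The 13 genes were chosen by the test on these same livers, so their lack of overlap between fed and fasted livers is no further evidence. Of all genes tested, fed and fasted ranges were apart for 18.1% higher and 17.9% lower in Nts+/+. The shares in Nts-/- were 17.1% and 18.1%. Gabarapl1 is highest in the fed Nts+/+ livers, between 309 and 388 CPM.

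Among the genes that supply membrane, Atg2a moved and its close relative did not pass the test. Atg2a (chr19:6241668-6262335) codes for a protein that carries lipids from the endoplasmic reticulum into the phagophore. It measured 33.9, 35.1 and 32.5 CPM in fed and 59.1, 61.7 and 51.98 CPM in fasted Nts+/+ livers, and 38.7, 35.9 and 36.98 CPM in fed and 49.5, 61.01 and 46.8 CPM in fasted livers labelled Nts-/-. All fasted livers lay above all fed livers, with log2 fold changes of 0.77 ± 0.12 (adjusted p = 0.00101) in Nts+/+ and 0.49 ± 0.12 (adjusted p = 0.0129, but 0.0656 without mouse 290) in Nts-/-. Atg2b, which codes for a protein of the same function, differed by 0.38 ± 0.13 (adjusted p = 0.0585) and 0.13 ± 0.13 (adjusted p = 0.536). Wipi1 and Wipi2, genes of proteins that read the lipid mark made by the class III PI3-kinase, differed by 0.36 ± 0.21 and 0.27 ± 0.12 in Nts+/+ and by 0.49 ± 0.21 and 0.33 ± 0.12 in Nts-/- without passing the test. Atg9a, a lipid scramblase of the vesicles that seed the phagophore, differed by -0.068 ± 0.14 and -0.32 ± 0.14, also without passing it.

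The kinase genes at the start of the pathway gave a single call, and it was downward. Ulk2 (chr11:61775649-61855073) measured 58.9, 59.3 and 72.9 CPM in fed and 43.03, 41.98 and 40.6 CPM in fasted Nts+/+ livers, against 70.03, 59.4 and 49.6 CPM in fed and 41.4, 39.3 and 47.03 CPM in fasted livers labelled Nts-/-. No fasted liver reached the lowest fed liver of its genotype. Its log2 fold change was -0.61 ± 0.14 in Nts+/+ (adjusted p = 0.00935) and -0.49 ± 0.14 in Nts-/- (adjusted p = 0.0277). The Nts-/- call was lost without mouse 277 (adjusted p = 0.142), 303 (0.0692), 284 (0.0901) or 290 (0.109), and in a fit of the groups compared alone. Ulk1, the other kinase of the complex, differed by -0.0013 ± 0.22 and 0.37 ± 0.22, with ranges that overlapped in both genotypes. The scaffold genes Atg13, Atg101 and Rb1cc1 (FIP200), and the class III PI3-kinase genes Becn1, Pik3c3, Atg14 and Uvrag, had no call in either fasting comparison, and among these 7 genes the smallest adjusted p was 0.187 (Atg101 in Nts+/+).

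In the conjugation machinery Atg16l1 (chr1:87755870-87792428) was the only gene of 6 that passed the test. Its product directs the attachment of LC3 to the phagophore. It measured 27.8, 30.2 and 34.4 CPM in fed and 43.3, 41.5 and 37.4 CPM in fasted Nts+/+ livers, and 25.8, 27.9 and 27.03 CPM in fed and 37.98, 37.8 and 35.5 CPM in fasted livers labelled Nts-/-. The fed and fasted ranges were apart in both genotypes, most clearly in Nts-/-. The rise was 0.40 ± 0.11 on the log2 scale in Nts+/+ (adjusted p = 0.0219) and 0.46 ± 0.11 in Nts-/- (adjusted p = 0.0113). The Nts+/+ call was lost without mouse 254 (adjusted p = 0.107), 257 (0.0649), 265 (0.0640) or 282 (0.0804), and in a fit of the groups compared alone. Atg3, Atg4b, Atg5, Atg7 and Atg12, which code for the other enzymes and substrates of the 2 conjugation reactions, ranged from -0.27 ± 0.14 (Atg3) to 0.34 ± 0.16 (Atg5) in Nts+/+ and from 0.020 ± 0.14 (Atg3) to 0.31 ± 0.11 (Atg12) in Nts-/-.

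In the ATG8 family both LC3 genes were called in at least 1 genotype, and no GABARAP gene was called by edgeR with all 12 mice and TMM scaling. Map1lc3a (chr2:155276297-155278073, LC3A) measured 34.9, 43.7 and 36.2 CPM in fed and 58.9, 53.5 and 65.7 CPM in fasted Nts+/+ livers, and 33.4, 26.1 and 43.4 CPM in fed and 67.3, 53.3 and 58.6 CPM in fasted livers labelled Nts-/-. Fed and fasted livers did not overlap. Its log2 fold change was 0.63 ± 0.17 in Nts+/+ (adjusted p = 0.0209, but 0.0952 without mouse 254, 0.0555 without 323 and 0.0631 without 322) and 0.80 ± 0.17 in Nts-/- (adjusted p = 0.00649).

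Map1lc3b (chr8:121590361-121598760, LC3B, the protein most used to follow autophagosomes) measured 102, 94.6 and 129.5 CPM in fed and 146, 143 and 153 CPM in fasted Nts+/+ livers. In livers labelled Nts-/- it measured 106, 87.6 and 116 CPM fed and 147, 157 and 183 CPM fasted. The ranges were apart in both genotypes, but only the Nts-/- difference passed the test, at 0.65 ± 0.15 (adjusted p = 0.00941). In Nts+/+ the difference was 0.44 ± 0.15 (adjusted p = 0.0535, and 0.0184 without mouse 323). The difference between the genotypes did not pass the interaction test (adjusted p = 0.916).

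Gabarap measured 187, 183 and 199.99 CPM in Nts+/+ fed, 159, 183 and 192 CPM in Nts+/+ fasted, 168, 175 and 225 CPM in Nts-/- fed and 207, 173 and 214 CPM in Nts-/- fasted livers. The 4 groups overlapped, with fasting differences of -0.10 ± 0.14 and 0.062 ± 0.14. Gabarapl2 (GATE-16) measured 44.8, 41.8 and 60.8 CPM in Nts+/+ fed, 57.2, 50.6 and 64.4 CPM in Nts+/+ fasted, 46.2, 41.3 and 56.6 CPM in Nts-/- fed and 63.6, 58.2 and 59.9 CPM in Nts-/- fasted livers. Its differences of 0.22 ± 0.16 and 0.33 ± 0.16 did not pass the test, although the Nts-/- fed and fasted ranges were apart.

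Gabarapl1 (chr6:129533160-129542346) had another order of groups. It measured 370.4, 388 and 309 CPM in Nts+/+ fed livers and 284, 221 and 243 CPM in Nts+/+ fasted livers. Livers labelled Nts-/- held 217, 185 and 246 CPM fed and 229.8, 284 and 355 CPM fasted. The Nts+/+ fed livers were above all Nts+/+ fasted and all Nts-/- fed livers, while the 2 Nts-/- groups overlapped. The fasting difference was -0.51 ± 0.17 in Nts+/+ (adjusted p = 0.0569, and 0.0457 without mouse 323) and 0.42 ± 0.17 in Nts-/- (adjusted p = 0.110). Neither passed edgeR's test with all 12 mice and TMM scaling. The Nts+/+ difference passed in 5 of 12 alternatives, and over the 12 the adjusted p ranged up to 0.210. Besides the fit without mouse 323, it passed with upper-quartile scaling (adjusted p = 0.0376) and with genes of at least 10 counts in every mouse (0.0487). It also passed in a fit of the 2 groups alone (0.0487) and in DESeq2 (0.0301).

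Bnip3 had the largest difference. Gabarapl1 measured higher in fed than in fasted Nts+/+ livers, without a call in the main test. Their promoter windows are shown. Both are RefSeq windows (build GRCm38.p6) that run 5′ to 3′ from 250 bases before to 50 bases after RefSeq's gene start, with the E-box letters CACGTG in capitals where present. Bnip3 holds the letters in 1 place and Gabarapl1 in none. Of all genes with a window 8.09% hold them, and a link between the letters and the values was not tested.
Bnip3, chr7:138909457-138909756 (minus strand): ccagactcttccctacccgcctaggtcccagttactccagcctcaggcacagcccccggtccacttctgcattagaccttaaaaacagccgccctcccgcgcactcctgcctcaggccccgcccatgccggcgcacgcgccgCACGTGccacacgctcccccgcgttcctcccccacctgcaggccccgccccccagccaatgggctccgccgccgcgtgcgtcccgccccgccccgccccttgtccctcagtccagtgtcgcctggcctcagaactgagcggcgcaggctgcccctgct
Gabarapl1, chr6:129532942-129533241 (plus strand): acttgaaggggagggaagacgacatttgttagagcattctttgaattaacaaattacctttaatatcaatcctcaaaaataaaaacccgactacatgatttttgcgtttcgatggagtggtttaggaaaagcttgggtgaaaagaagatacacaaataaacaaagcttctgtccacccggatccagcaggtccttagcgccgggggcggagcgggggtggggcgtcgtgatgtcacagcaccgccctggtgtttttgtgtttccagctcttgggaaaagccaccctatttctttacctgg

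The mRNA of the transcription factors that act on this pathway gave no call. Tfeb measured 5.24, 7.98 and 5.54 CPM in Nts+/+ fed and 7.59, 9.19 and 7.78 CPM in Nts+/+ fasted livers, a difference of 0.39 ± 0.19 (adjusted p = 0.184) with overlapping ranges, and differed by 0.040 ± 0.19 in Nts-/-. Tfe3 differed by -0.11 ± 0.15 and -0.025 ± 0.15. Both factors are known to be controlled mainly by phosphorylation and entry into the nucleus, which mRNA levels do not measure.

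TFEB and TFE3 bind the letters TCACGTG, so the promoter windows of the 46 genes were searched for them on both strands. RefSeq held a window for 37 of the 46 genes, the missing ones being Atg12, Atg16l1, Atp6v1h, Becn1, Bnip3l, Ctsb, Map1lc3a, Pik3c3 and Rb1cc1. The letters were present in 9 of the 37 genes (24.3%) and in 4.29% of the 27025 genes with a window of the same length. The shorter CACGTG, which every TCACGTG contains, was present in 12 of 37 (32.4%, the further ones being Bnip3, Atg5 and Ctsl) and in 8.09% of all genes. RefSeq's start lay within 1000 bases of the gene's start in the deposited table for 34 of the 37 genes, the others being Atg4b, Atg7 and Wipi2. That of Ctsl lay 214 bases before the gene as the table gives it, so its window is less certain. That of Atg7 lay 27999 bases inside the gene. Ctsa had 2 windows. Its matches lay in the one whose start was 900 bases inside the gene, not in the one at the gene's start. The FoxO letters GTAAACA were in 0 of 37 and in 4.05% of all genes. A match is a run of letters in this window and says nothing of binding, and its absence says only that the letters are not there.

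The stretches that hold TCACGTG are shown for these 9 genes, with every match in capitals and 17 bases on each side (RefSeq, GRCm38.p6, 5′ to 3′ in the direction of the gene). Where the capitals read TCACGTGA the letters occur on both strands and overlap, and CACGTGA is a match on the other strand. Lamp1 holds 4 separate sites within 87 bases, Ctsa, Mcoln1 and Atg3 hold a pair each, and a further match in Ctsd at position -245 lies outside the stretch.
Ctsa, chr2:164833743-164833801 (plus strand): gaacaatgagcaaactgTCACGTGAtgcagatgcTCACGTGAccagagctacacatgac
Ctsd, chr7:142387902-142387943 (minus strand): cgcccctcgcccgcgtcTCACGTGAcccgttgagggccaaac
Gaa, chr11:119267805-119267845 (plus strand): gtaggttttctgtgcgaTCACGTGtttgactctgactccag
Lamp1, chr8:13159082-13159168 (plus strand): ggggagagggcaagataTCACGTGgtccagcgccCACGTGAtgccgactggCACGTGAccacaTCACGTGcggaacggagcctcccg
Mcoln1, chr8:3500430-3500497 (plus strand): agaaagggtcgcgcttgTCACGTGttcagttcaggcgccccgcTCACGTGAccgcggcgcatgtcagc
Atp6v0d1, chr8:105566044-105566085 (minus strand): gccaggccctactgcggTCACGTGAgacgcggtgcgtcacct
Atg3, chr16:45158717-45158781 (plus strand): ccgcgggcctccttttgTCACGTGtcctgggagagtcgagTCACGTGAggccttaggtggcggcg
Atg7, chr6:114670946-114670986 (plus strand): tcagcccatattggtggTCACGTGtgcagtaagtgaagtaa
Atg14, chr14:47568412-47568452 (minus strand): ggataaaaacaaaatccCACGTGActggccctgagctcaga

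**Figure D3:**
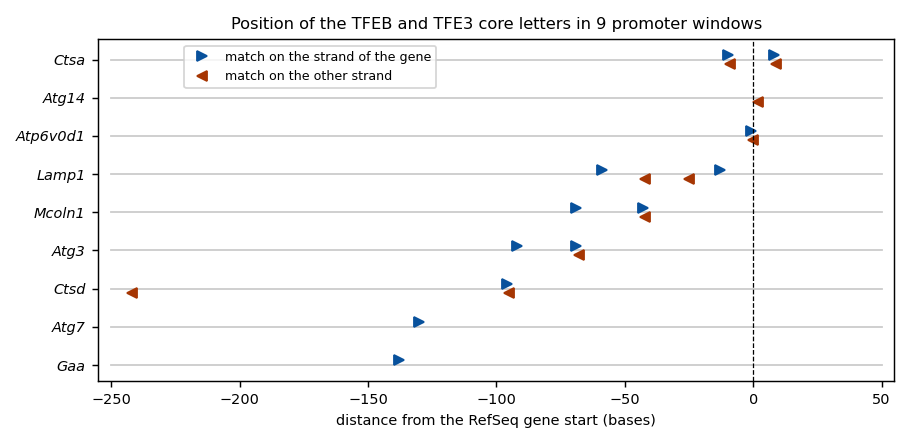
Distance in bases of each TCACGTG match from the RefSeq gene start (dashed line, which for Atg7 lies inside the gene as the deposited table gives it) in the 9 promoter windows that hold it; triangles pointing right are matches on the strand of the gene and triangles pointing left on the other strand, and grey lines span the window searched. Matches lie near the start in Ctsa, Atg14 and Atp6v0d1 and farthest upstream in Ctsd, at position -245. For Ctsa the start is that of the window 900 bases inside the gene as the deposited table gives it.

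Of the 9 genes with TCACGTG, 6 code for lysosomal proteins and 3 for autophagy proteins. Gaa was called higher after the fast in Nts+/+ and Ctsd in Nts-/-, so that 1 of 9 was called in each genotype, against 4 higher and 1 lower of the 28 genes without the letters in Nts+/+ and 5 higher and 1 lower in Nts-/-. Their median log2 fold change was 0.093 in Nts+/+ and 0.054 in Nts-/-, against 0.19 in each genotype for the 28 genes without the letters. With the shorter CACGTG this order was not kept: the 12 genes with it had medians of 0.15 and 0.18, with 3 called higher in each genotype, and the 25 without it had medians of 0.15 and 0.17, with 2 called higher and 1 lower in Nts+/+ and 3 higher and 1 lower in Nts-/-. Of all genes tested, 18.1% were called in Nts+/+ and 16.8% in Nts-/-. The counts by letters are a description of 37 genes and were not tested, and they are too small to set apart from those shares. The counts leave out Atg16l1, Atp6v1h, Bnip3l, Ctsb and Map1lc3a, which were called in both genotypes but had no window.

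The lysosomal hydrolases moved in both directions. Ctsl (chr13:64363214-64370306), the gene of the cysteine protease cathepsin L, measured 596, 459.9 and 558 CPM in fed and 953, 701 and 635 CPM in fasted Nts+/+ livers, and 478, 484 and 499 CPM in fed and 894, 919 and 852 CPM in fasted livers labelled Nts-/-. All fasted livers were above all fed livers, narrowly so in Nts+/+. The rise was 0.50 ± 0.16 in Nts+/+ (adjusted p = 0.0413) and 0.87 ± 0.16 in Nts-/- (adjusted p = 0.00261). The Nts+/+ call was lost without mouse 254 (adjusted p = 0.0678), 257 (0.150), 323 (0.0629), 265 (0.149) or 282 (0.0748). It was also lost with upper-quartile scaling and in a fit of the groups compared alone.

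Gaa (chr11:119267887-119285454), the gene of acid alpha-glucosidase, which breaks down glycogen inside lysosomes, measured 96.99, 104 and 81.4 CPM in fed and 138, 142 and 151 CPM in fasted Nts+/+ livers, and 103, 86.7 and 108 CPM in fed and 114, 147 and 133 CPM in fasted livers labelled Nts-/-. No fed liver reached the lowest fasted liver of its genotype. It rose by 0.61 ± 0.14 in Nts+/+ (adjusted p = 0.00817). In Nts-/- the difference was 0.40 ± 0.14 (adjusted p = 0.0573, but 0.0453 without mouse 319 and 0.0474 without mouse 284).

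Ctsd (chr7:142375911-142388038) measured 382, 371 and 335 CPM in fed and 491, 421 and 459 CPM in fasted Nts+/+ livers, against 333, 343 and 346 CPM in fed and 452, 429.9 and 445 CPM in fasted livers labelled Nts-/-. The ranges were apart in both genotypes and the Nts-/- livers were the tightest. The difference was 0.33 ± 0.12 in Nts+/+ (adjusted p = 0.0608) and 0.38 ± 0.12 in Nts-/- (adjusted p = 0.0389). The Nts-/- call was lost without mouse 277 (adjusted p = 0.121), 303 (0.0894), 284 (0.111), 290 (0.0762) or 295 (0.0900). It was also lost with upper-quartile scaling, with no count filter and in a fit of the groups compared alone.

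Ctsb (chr14:63122462-63145919) went the other way. It measured 883, 987 and 746 CPM in fed and 599.9, 561 and 597 CPM in fasted Nts+/+ livers, and 689, 807 and 852 CPM in fed and 525, 485 and 643 CPM in fasted livers labelled Nts-/-. Every fasted liver was below every fed liver of its genotype. The log2 fold change was -0.57 ± 0.15 in Nts+/+ (adjusted p = 0.0193) and -0.51 ± 0.15 in Nts-/- (adjusted p = 0.0351). Without mouse 254, 257 or 282 the adjusted p in Nts+/+ was 0.0697, 0.0817 or 0.0852. Without mouse 303, 319, 284 or 290 it was 0.105, 0.0789, 0.122 or 0.138 in Nts-/-, where a fit of the groups compared alone also lost the call. Macrophages also use this enzyme, and the summed level of the 11 Kupffer cell and macrophage markers was 732 to 767 CPM in Nts+/+ fed and 367 to 618 CPM in Nts+/+ fasted livers, which did not overlap, but 475 to 607 CPM in Nts-/- fed and 455 to 668 CPM in Nts-/- fasted livers, which did. Their part in the Ctsb difference was not tested, and in whole liver fewer cells of a type and less RNA per cell cannot be told apart. The remaining hydrolase genes Ctsa, Neu1, Hexa and Lipa, for a carboxypeptidase, a sialidase, a hexosaminidase subunit and the acid lipase, had no call, with log2 fold changes from -0.065 (Hexa) to 0.18 (Ctsa) in Nts+/+ and from -0.16 (Lipa) to 0.25 (Ctsa) in Nts-/-.

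At the lysosomal membrane Atp6v1h (chr1:5070018-5162529), a subunit of the soluble sector of the proton pump, measured 44.5, 45.95 and 54.8 CPM in fed and 65.6, 62.2 and 64.1 CPM in fasted Nts+/+ livers, and 44.00, 51.1 and 58.5 CPM in fed and 69.2, 69.02 and 68.7 CPM in fasted livers labelled Nts-/-. The 3 fasted Nts-/- livers were almost level and above every fed liver. It rose by 0.40 ± 0.12 in Nts+/+ (adjusted p = 0.0365) and by 0.43 ± 0.12 in Nts-/- (adjusted p = 0.0278). The Nts+/+ call was lost without mouse 254 (adjusted p = 0.156), 257 (0.113), 265 (0.0835), 282 (0.0939) or 322 (0.0721). It was also lost with upper-quartile scaling, with no count filter and in a fit of the groups compared alone. Likewise the Nts-/- call was lost without mouse 277 (adjusted p = 0.132), 303 (0.0760), 284 (0.0786), 290 (0.0744) or 295 (0.0698), and in a fit of the groups compared alone. Lamp1, Lamp2, the calcium channel gene Mcoln1 and the pump subunit gene Atp6v0d1 had no call, and their log2 fold changes ran from -0.16 (Lamp1) to 0.26 (Lamp2) in Nts+/+ and from -0.22 (Mcoln1) to 0.18 (Lamp2) in Nts-/-.

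Most of the 46 genes, like most genes tested, had fasting differences of the same sign in the 2 genotypes, which have separate fed and fasted mice. This was so for 36 of 46 genes (78.3%), close to the 74.4% of all genes tested. In both genotypes 10 genes were called, which is 90.9% of the Nts+/+ calls and 83.3% of the Nts-/- calls. Over all genes the shared calls were 59.2% and 63.7%. Across the 46 genes Pearson's r between the 2 sets of log2 fold changes was 0.81, and 0.70 across all genes tested. Genes are not independent replicates, so no p is given. The fed and fasted ranges did not overlap for 13 genes higher and 4 lower in Nts+/+ (18.1% and 17.9% of all genes tested), and for 17 higher and 3 lower in Nts-/- (17.1% and 18.1%).

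No member of the pathway passed the test between genotypes. In fed livers 0 of 46 genes were called by edgeR or DESeq2, with 0% of all genes called by edgeR, and 1 of 46 had an unadjusted p under 0.05, against 6.34% of all genes. That gene was Gabarapl1, at -0.72 ± 0.17 (Nts-/- against Nts+/+, unadjusted p = 0.00105, adjusted p = 0.709), whose 3 Nts-/- fed livers were all below the Nts+/+ fed livers. Wipi1 followed with -0.46 ± 0.21, from 10.9, 10.2 and 12.1 CPM in Nts+/+ fed and 11.3, 6.55 and 6.20 CPM in Nts-/- fed livers, which overlapped. Atg3 differed by -0.28 ± 0.14, from 80.6, 82.1 and 72.4 CPM in Nts+/+ fed and 61.7, 68.3 and 63.5 CPM in Nts-/- fed livers, which did not overlap. The 2 genotypes did not overlap for 1 gene higher and 4 lower in Nts-/- fed livers (4.81% and 5.85% of all genes tested). The 46 differences ran from -0.72 to 0.28 with a median of -0.085, which was 0.0051 without mouse 303. Of the 46, 15 were above 0, against 51.8% of all genes tested. The summed Kupffer cell and macrophage markers were 475 to 607 CPM in Nts-/- fed and 732 to 767 CPM in Nts+/+ fed livers. Their part in the genotype differences was not tested.

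In fasted livers 0 of 46 genes were called by edgeR or DESeq2, again with 0% of all genes called by edgeR, and 2 of 46 had an unadjusted p under 0.05, against 4.96% of all genes. Uvrag, which codes for a partner of Beclin 1, differed by -0.30 ± 0.14 (adjusted p = 0.917), from 22.5, 26.04 and 27.9 CPM in Nts+/+ fasted and 19.1, 21.4 and 21.7 CPM in Nts-/- fasted livers. Atg101 differed by 0.32 ± 0.15 (adjusted p = 0.917), from 26.2, 20.03 and 19.7 CPM in Nts+/+ fasted and 28.7, 23.7 and 29.8 CPM in Nts-/- fasted livers. The Uvrag ranges were apart and those of Atg101 overlapped. Atg2b came next at -0.28 ± 0.13, with 32.9, 27.5 and 27.1 CPM in Nts+/+ fasted and 22.6, 26.4 and 23.1 CPM in Nts-/- fasted livers. The 2 genotypes did not overlap for 2 genes higher and 5 lower in Nts-/- fasted livers (5.29% and 6.88% of all genes tested). All 46 differences lay between -0.33 and 0.32, with a median of 0.0074.

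**Figure D4:**
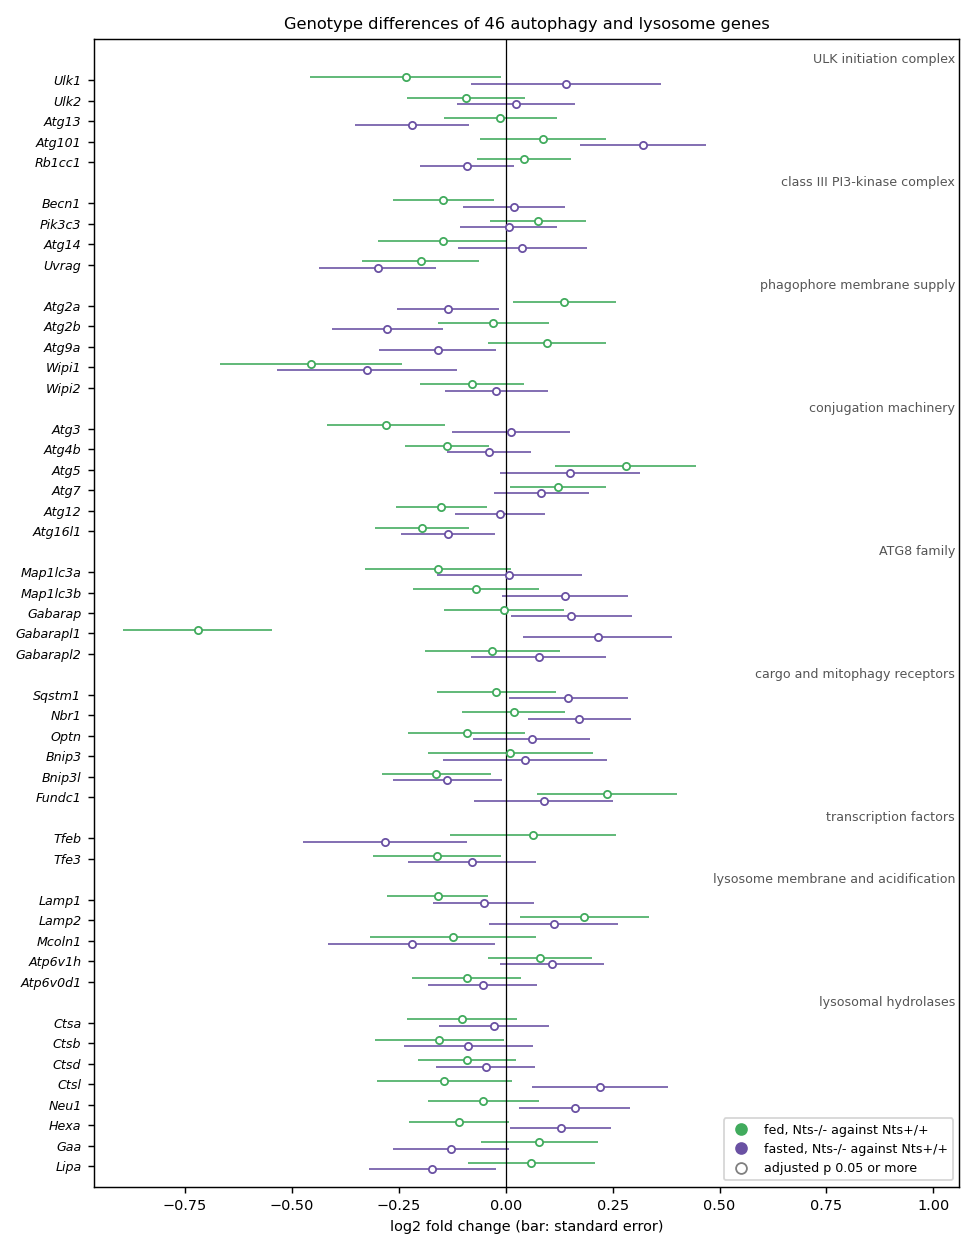
Log2 fold change, Nts-/- against Nts+/+ as labelled, of each of the 46 genes in fed livers (green) and fasted livers (purple), grouped by role; bars are standard errors (3 mice per group) and every circle is open because no gene passed an adjusted p of 0.05. Gabarapl1 in fed livers lies farthest from 0, at -0.72.

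The test of whether the fasting difference itself depended on genotype gave 0 calls of 46 by edgeR or DESeq2 (0% of all genes by edgeR) and 1 gene with an unadjusted p under 0.05, against 4.8% of all genes. Gabarapl1 had the smallest p, with a fasting difference that was 0.94 ± 0.25 higher on the log2 scale in Nts-/- than in Nts+/+ (unadjusted p = 0.00199, adjusted p = 0.897). Ctsl (0.36 ± 0.22) and Atg2a (-0.27 ± 0.17) came next, each with an adjusted p of 0.897. A p that misses the threshold does not show that the genotypes respond alike, since the standard error of these differences was 0.138 to 0.316 per gene.

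A further 148 genes of the pathway were tested from lists of related machinery. Of these, 12 rose and 10 fell in Nts+/+ livers and 12 rose and 14 fell in livers labelled Nts-/-, with median log2 fold changes of 0.066 and 0.051. These are 14.9% and 17.6% of the 148 genes, against 18.1% and 16.8% of all genes tested. Luminal and membrane proteins of the lysosome gave 3 higher and 2 lower of 17 in Nts+/+ (29.4%) and 4 higher and 3 lower in Nts-/- (41.2%), against the same 18.1% and 16.8%. Among them Grn, the gene of progranulin, went from 200.1 ± 11.6 CPM (mean ± SD, n = 3) to 411 ± 39.6 CPM in Nts+/+ and from 209.9 ± 16.2 to 400.05 ± 46.2 CPM in Nts-/- (1.04 ± 0.13 and 0.93 ± 0.13 on the log2 scale). Npc1, which exports cholesterol from the lysosome, rose by 1.06 ± 0.17 and 1.02 ± 0.17. Gm2a, the activator of ganglioside breakdown, fell from 112 ± 9.99 to 51.8 ± 4.23 CPM in Nts+/+ and from 126 ± 11.3 to 48.2 ± 9.07 CPM in Nts-/- (-1.12 ± 0.14 and -1.39 ± 0.14).

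The other lysosomal hydrolases gave 1 higher and 5 lower of 31 in Nts+/+ (19.4%) and 2 higher and 5 lower in Nts-/- (22.6%), against 18.1% and 16.8% of all genes. Ctsc, a dipeptidyl peptidase, fell from 191 ± 11.98 to 91.9 ± 23.02 CPM in Nts+/+ (-1.06 ± 0.16 on the log2 scale) and from 168 ± 10.1 to 70.03 ± 4.77 CPM in Nts-/- (-1.26 ± 0.16). Asah1, the acid ceramidase, fell by 0.75 ± 0.17 and 0.71 ± 0.17. Ctss, a cathepsin of macrophages and other antigen-presenting cells, fell in Nts+/+ (-0.79 ± 0.16, adjusted p = 0.00396) and differed by -0.063 ± 0.15 in Nts-/- (adjusted p = 0.824). The summed macrophage markers given for Ctsb were lower in every fasted than in every fed Nts+/+ liver, while the Nts-/- groups overlapped. The Nts+/+ fed livers had the highest sums, and the Nts+/+ fasted livers overlapped both Nts-/- groups. The part of these cells was not tested.

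The autophagy machinery outside the 46 genes gave 1 higher and 1 lower of 20 in Nts+/+ (10%) and 3 higher and 1 lower in Nts-/- (20%), against 18.1% and 16.8% of all genes. Ei24, an endoplasmic reticulum protein needed for autophagy, rose in both (0.60 ± 0.14 and 0.91 ± 0.14). Nrbf2, a subunit of the class III PI3-kinase complex, rose in Nts-/- (0.59 ± 0.13) and differed by -0.0083 ± 0.13 in Nts+/+ (adjusted p = 0.973). Atg4d, a protease of the ATG8 proteins, rose in Nts-/- (0.63 ± 0.14) and differed by 0.39 ± 0.14 in Nts+/+ (adjusted p = 0.0659).

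The other selective receptors gave 4 higher and 0 lower of 16 in Nts+/+ (25%) and 2 higher and 0 lower in Nts-/- (12.5%), where 8.91% and 7.7% of all genes were higher. Phb2, a mitophagy receptor of the inner mitochondrial membrane, rose by 0.68 ± 0.12 and 0.61 ± 0.12, and the ubiquitin-binding receptor gene Tax1bp1 rose by 0.41 ± 0.12 and 0.44 ± 0.12. Ncoa4, the receptor that delivers ferritin to lysosomes, rose in Nts+/+ (0.57 ± 0.14) and differed by 0.046 ± 0.14 in Nts-/- (adjusted p = 0.859). The 14 genes of autophagosome-lysosome fusion had 0 calls by edgeR in both genotypes, against 18.1% and 16.8% of all genes. At an unadjusted p under 0.05 stood 2 of the 14 in each genotype, against 32.5% and 31.7% of all genes.

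Upstream of the ULK complex, the genes of mTORC1, TSC and Rag control gave 2 higher and 1 lower of 28 in Nts+/+ (10.7%) and 0 higher and 2 lower in Nts-/- (7.14%), both below the shares of all genes (18.1% and 16.8%). Mtor, the kinase that holds autophagy back in the fed state, rose in Nts+/+ (0.71 ± 0.14) and differed by 0.42 ± 0.14 in Nts-/- (adjusted p = 0.0519). Lamtor2, a part of the lysosomal anchor of mTORC1, fell in Nts+/+ (-0.98 ± 0.16) and differed by -0.22 ± 0.16 in Nts-/- (adjusted p = 0.355). Sesn1, a sestrin, fell in Nts-/- (-0.75 ± 0.15) and differed by -0.36 ± 0.15 in Nts+/+ (adjusted p = 0.120). None of these passed the interaction test.

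Of the 8 AMPK subunit and upstream kinase genes only Camkk2, a kinase that activates AMPK, passed the test. That is 12.5% in each genotype, against 18.1% and 16.8% of all genes. Camkk2 fell from 19.6 ± 2.66 to 9.24 ± 1.93 CPM in Nts+/+ (-1.08 ± 0.20) and from 16.8 ± 4.49 to 6.91 ± 0.671 CPM in Nts-/- (-1.29 ± 0.20). The other proton pump subunits gave 1 higher and 0 lower of 15 in Nts+/+ (6.67%) and 1 higher and 2 lower in Nts-/- (20%), against 18.1% and 16.8% of all genes. Atp6v0a2 rose in Nts+/+ (0.39 ± 0.12) and differed by 0.23 ± 0.12 in Nts-/- (adjusted p = 0.221). Atp6v1c1 rose in Nts-/- (0.43 ± 0.13) and differed by 0.20 ± 0.13 in Nts+/+ (adjusted p = 0.304). Atp6v1g1 fell in Nts-/- (-0.59 ± 0.14) and differed by -0.43 ± 0.14 in Nts+/+ (adjusted p = 0.0520).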

How the data were processed

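Liver RNA of 12 mice was sequenced, and the authors deposited estimated counts per gene (expected counts of RSEM, after trimming with Trimmomatic, on GRCm38, per the submitters' processing notes; versions and annotation are not given in the sources used here). RSEM divides reads shared between near-identical genes, and 7.94% of the values were not whole. Values were rounded to whole counts. Groups and mouse numbers were taken from the sample titles, and all samples carry the same batch label. edgeR 4.0.16 (R 4.3.3) was run with TMM scaling, filterByExpr, a robust quasi-likelihood fit over all 4 groups and Benjamini-Hochberg adjustment over 13812 genes, with a threshold of 0.05. The code was tested on simulated data. CPM values are TMM-scaled. The 3 mice per group are separate animals, so p-values set each difference against the spread between mice. That spread was estimated over all 4 groups together and drew on other genes. Counting floors cover counting error only.

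The 46 genes and all lists were chosen with earlier results of these data known. The genes given with values were those past the threshold in either fasting comparison, the 3 with the smallest p in each genotype comparison and in the interaction, the ATG8 family, the 3 with the highest level per length and, in each further list, up to 3 called genes with the smallest p. Of 152 further genes 151 were in the table and 148 were tested (Atg9b, Mcoln2 and Mcoln3 were not). The gene Tecpr1 is in both the machinery and the fusion list. Transcript lengths came from GENCODE, matched by Ensembl ID, and promoter windows from RefSeq (GRCm38.p6). Positions are those of the deposited table. The alternatives were other scalings (RLE, upper quartile), other count filters, fits of the groups compared alone, DESeq2 1.42.0, other thresholds and leaving out each mouse.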

Additional observations from a re-analysis of the deposited data

How the results depend on the processing

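No paired analysis was possible because each mouse number occurs once in the series and links no mice between groups. When a change of 2-fold or more was also required, 1 of the 46 genes was called in Nts+/+ (6.6% of all genes) and 1 in Nts-/- (6.62%). Leaving out each mouse gave 5 to 12 calls in Nts+/+ (8.7 to 17.1% of all genes) and 7 to 12 in Nts-/- (9.68 to 18.7%), and 0 in the genotype comparisons and the interaction. A fit of the groups compared alone gave 6 higher and 3 lower in Nts+/+ (15.3% of all genes) and 8 higher and 0 lower in Nts-/- (14.9%). The fasting difference of Gabarap in Nts-/-, which did not pass the test, turned from 0.062 to -0.016 without mouse 277 and ranged up to 0.21 (without mouse 319). In all 12 alternatives fitted, the calls held for Ulk2, Atg2a, Optn, Bnip3 and Gaa in Nts+/+ and for Atg16l1, Map1lc3a, Map1lc3b, Optn, Bnip3, Bnip3l and Ctsl in Nts-/-. DESeq2 called 15 of 46 genes in each genotype (20.9% of all genes in Nts+/+ and 20.2% in Nts-/-). Those beyond edgeR's calls were Atg2b, Map1lc3b, Ctsd and Gabarapl1 in Nts+/+ and Wipi2, Atg12 and Gaa in Nts-/-. Scaling by RLE or upper quartile moved the median of all genes by less than 0.05 on the log2 scale in each comparison. The planned comparison of ATG8 protein sequences was not run, and the canonical transcript length was chosen after the data were seen. With 3 mice per group, depth was not the limit for these genes, whose lowest count in a mouse was 125.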
